A study of Mus musculus with 21 samples.

Results

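The 10 genes described here belong to the interleukin 1 (IL-1) family and to the inflammasome, and they were chosen by name, with earlier results of these data known. They are the cytokine genes Il1a, Il1b and Il18, the antagonist genes Il1rn and Il18bp, and the inflammasome genes Nlrp3, Pycard, Casp1, Casp4 and Gsdmd. They are 10 of 47069 gene identifiers in the count table, and all 10 were among the 15581 genes that passed the filter on low counts. The RNA came from cultured macrophages of bone marrow, which grow from precursors in the presence of the growth factor M-CSF, here from wild-type C57BL/6 mice of 8-10 weeks. The treated groups were IL_TNF_6h and IL_TNF_24h (interleukins 4 and 13 together with tumour necrosis factor, TNF), IL_6h and IL_24h (both interleukins without TNF), and TNF_6h and TNF_24h (TNF without the interleukins). Each cytokine was used at 10 ng/ml and the cells were taken at 6 or 24 h. The untreated group, Ctrl_0h, was taken at 0 h. With no untreated cells at 6 or 24 h, each difference from Ctrl_0h includes the time in culture, which cannot be told apart from the treatment. Each of the 7 groups had 3 libraries, 21 in all, with between 28.1 and 48.7 M counts each (M, 1e6). Nothing in the labels ties the libraries of a group to separate animals or cultures. The p values thus measure the spread between these samples only, which may be technical.

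IL-1α and IL-1β act on one receptor, and the receptor antagonist encoded by Il1rn occupies that receptor without signalling. IL-18 has a receptor of its own and is bound in solution by the IL-18 binding protein encoded by Il18bp. IL-1β and IL-18 are made as inactive precursors. In an inflammasome a sensor such as NLRP3 gathers the adaptor ASC, encoded by Pycard, and caspase-1, which cuts both precursors and gasdermin D, whose released part forms pores in the cell membrane. Mouse caspase-4, also known as caspase-11, binds bacterial lipopolysaccharide inside the cell and cuts gasdermin D as well. Transcript levels of Nlrp3 and Il1b are known to depend on NF-kB, which TNF activates, while IL-4 and IL-13 signal through STAT6.

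The label of macrophages was checked against 10 marker genes, which were all detected in every group and summed to between 12586 and 44271 CPM (counts per M of the TMM-scaled library total). Markers of other cells summed to at most 31.6 CPM, other than the B cell list, which reached 78.7 to 93.4 CPM in Ctrl_0h, 33.9 to 42.2 CPM in TNF_24h and at most 3.99 CPM elsewhere, nearly all of it Ighm. The T and NK cell list stood at 27.3 to 30.4 CPM in TNF_6h, nearly all of it Cd4, and at most at 9.01 CPM elsewhere. Their part in the results was not tested, and in such bulk samples fewer cells of a type and less RNA per cell cannot be told apart. The libraries fell into 3 sets. IL_24h and IL_TNF_24h had between 41.8 and 50.9 CPM of the Y-linked gene Ddx3y and at most 0.145 CPM of Xist, while the other 15 libraries had no Ddx3y and at least 162 CPM of Xist. IL_6h and IL_TNF_6h had between 30.3 and 64.2 CPM of the interferon-inducible gene Ifi202b, which had 0 counts in the other libraries. Differences between TNF and Ctrl_0h, and between IL_TNF and IL at the same time, lie inside one set. In IL against Ctrl_0h, in IL_TNF against TNF and in the interactions described below, the set and the interleukins cannot be told apart. For the change of the TNF effect between 6 and 24 h with the interleukins, the set and the time cannot be told apart. Replicate 2 of Ctrl_0h, replicate 1 of IL_TNF_24h, replicate 2 of IL_6h and replicate 3 of IL_TNF_6h stood apart from their groups. A value that moved by over 1.5 times or a call that changed without one of them is given both ways.

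Promoter windows from RefSeq in the build GRCm38.p6, from 250 bases before to 50 after an annotated start of transcription, were matched for 9 of the 10 genes. Windows of 5 genes on which the results below turn are shown, in the direction of transcription. Capitals mark matches on either strand to letters of NF-kB (GGGNNTTNCC) or STAT6 (TTCNNNNGAA). The windows lie at chr2:129371090-129371389 (minus strand, Il1b), chr2:24345041-24345340 (plus strand, the second of 3 Il1rn windows), chr9:50554450-50554749 (plus strand, Il18), chr11:59541319-59541618 (plus strand, the first of 2 Nlrp3 windows) and chr9:5308599-5308898 (plus strand, the first of 2 Casp4 windows).
Il1b: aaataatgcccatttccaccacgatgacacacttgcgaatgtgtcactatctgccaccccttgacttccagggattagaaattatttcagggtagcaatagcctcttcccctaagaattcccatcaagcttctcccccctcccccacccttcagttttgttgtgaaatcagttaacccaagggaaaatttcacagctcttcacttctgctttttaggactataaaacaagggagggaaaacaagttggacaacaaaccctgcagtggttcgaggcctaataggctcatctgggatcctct
Il1rn: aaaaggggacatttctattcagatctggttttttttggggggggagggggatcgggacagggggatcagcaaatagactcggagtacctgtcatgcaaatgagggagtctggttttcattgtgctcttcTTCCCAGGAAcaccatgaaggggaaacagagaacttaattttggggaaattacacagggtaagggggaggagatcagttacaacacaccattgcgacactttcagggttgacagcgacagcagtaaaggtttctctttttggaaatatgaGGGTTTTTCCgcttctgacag
Il18: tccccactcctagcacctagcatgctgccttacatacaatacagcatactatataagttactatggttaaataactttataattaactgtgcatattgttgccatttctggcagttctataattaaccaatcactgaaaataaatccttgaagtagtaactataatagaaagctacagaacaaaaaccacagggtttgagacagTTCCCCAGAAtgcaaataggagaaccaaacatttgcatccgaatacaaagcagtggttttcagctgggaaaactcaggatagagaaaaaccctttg
Nlrp3: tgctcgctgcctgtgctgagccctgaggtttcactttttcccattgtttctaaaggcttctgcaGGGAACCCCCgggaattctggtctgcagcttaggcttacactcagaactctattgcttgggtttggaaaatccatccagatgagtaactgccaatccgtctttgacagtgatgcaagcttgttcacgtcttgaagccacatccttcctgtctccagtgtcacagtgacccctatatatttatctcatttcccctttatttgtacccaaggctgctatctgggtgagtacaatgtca
Casp4: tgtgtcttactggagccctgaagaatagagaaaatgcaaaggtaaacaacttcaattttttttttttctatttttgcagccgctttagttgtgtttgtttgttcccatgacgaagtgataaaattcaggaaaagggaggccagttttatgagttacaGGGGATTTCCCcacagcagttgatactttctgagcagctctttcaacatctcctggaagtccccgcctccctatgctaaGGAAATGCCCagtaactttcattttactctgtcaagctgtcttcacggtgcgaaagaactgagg
The NF-kB letters occurred in 4.79% and the STAT6 letters in 6.95% of all 32851 windows of this length. Casp4 had 3 NF-kB matches in the window shown, at -93, -92 and -14 from the start, of which the first and second overlap. Nlrp3 had 1 NF-kB match at -186, on the minus strand. Il1rn had an NF-kB match at 29 and a STAT6 match at -121, and Il18 a STAT6 match at -46. The window of Il1b held no match to any of the 8 motifs searched. A match describes these letters in these windows and not a site that was measured.

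**Figure D1:**
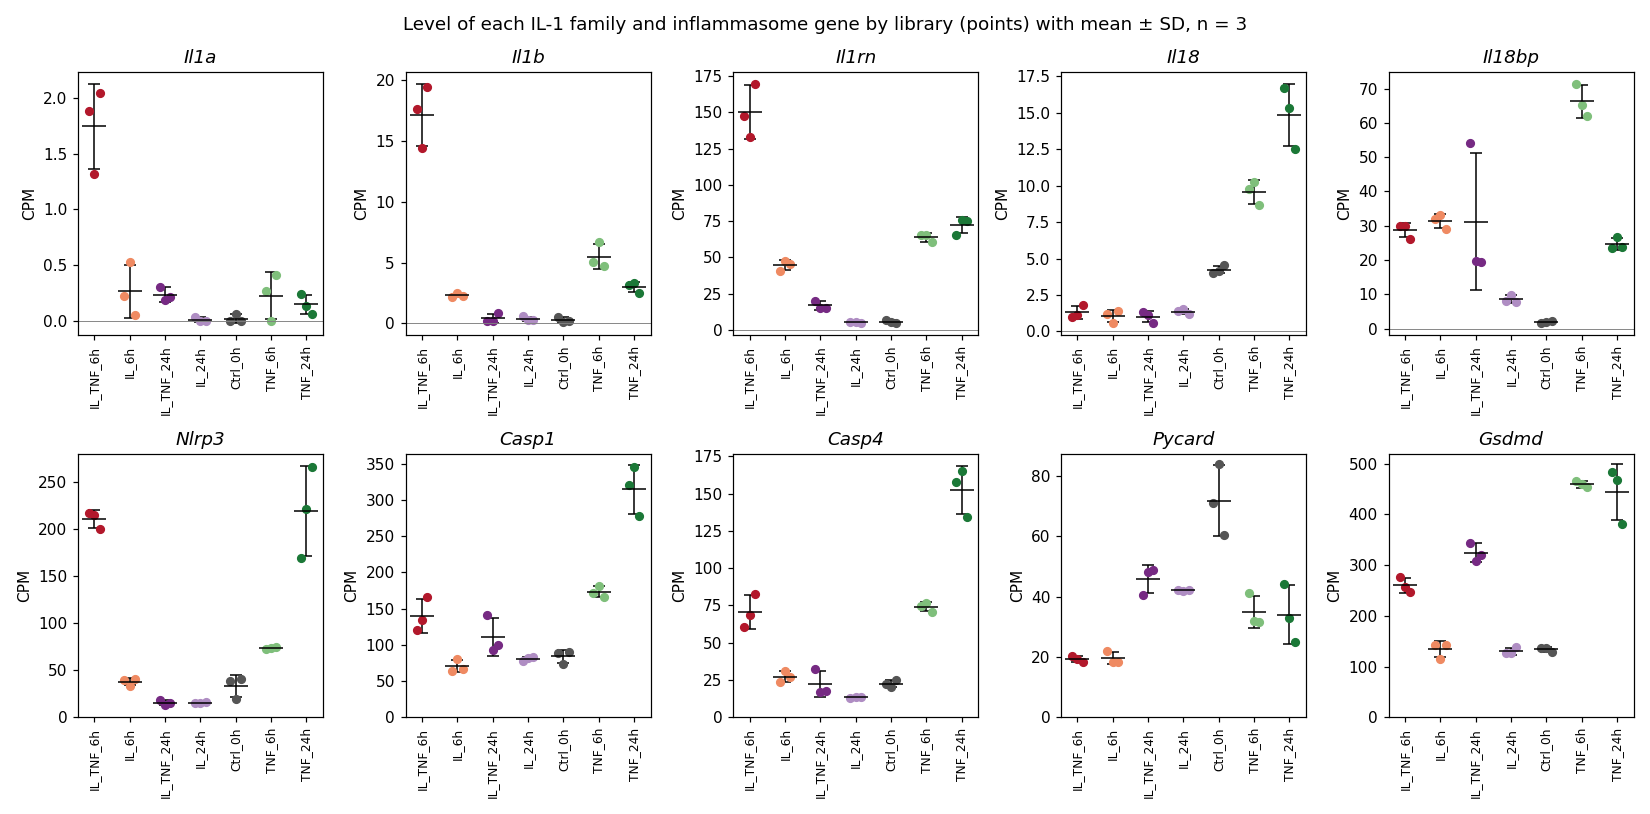
Level of each of the 10 genes in CPM (y axis) in each library (points) by group (x axis), with the group mean and SD (lines, n = 3). The Il1a and Il1b panels peak in IL_TNF_6h, the Casp1, Casp4 and Il18 panels in TNF_24h, and the Pycard panel in Ctrl_0h.

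TNF alone was compared with Ctrl_0h to follow its response over time. At 6 h, 9 of the 10 genes rose and Pycard fell, where 18.8% of the 15581 genes tested rose and 20.5% fell. At 24 h, 8 rose and Pycard fell, against 20.9% raised and 24.4% lowered among all genes tested, and Il1a was not called. The median log2 fold change of the 10 genes was 1.75 at 6 h and 2.71 at 24 h, beside -0.04 and -0.09 over all genes tested. Calls are adjusted p values below 0.05 by the quasi-likelihood F test of edgeR with Benjamini-Hochberg adjustment over all genes tested, and changes are given as log2 fold changes ± standard error. Between TNF_24h and TNF_6h, Nlrp3, Casp4 and Casp1 rose further and Il18bp fell, against 12.7% raised and 10.9% lowered among all genes.

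With IL-4 and IL-13 present, TNF raised 6 of these genes at 6 h and 5 at 24 h. In IL_TNF_6h against IL_6h, 6 of the 10 rose (Il1b, Nlrp3, Il1rn, Casp4, Casp1 and Gsdmd) and none fell, while 7.09% of all genes rose and 6.98% fell. In IL_TNF_24h against IL_24h, 5 rose (Il1a, Il18bp, Il1rn, Gsdmd and Casp4) and none fell, while 6.03% of all genes rose and 5.08% fell. The 24 h count was 3 when replicate 1 of IL_TNF_24h or any 1 library of IL_24h was left out, since Il1a and Casp4 were then not called. At an unadjusted p below 0.05, 0 of the 10 genes were lower in either comparison by edgeR, and DESeq2 called 0 as lowered in either.

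The effect of TNF in the libraries with the interleukins minus its effect in those without them was tested as an interaction, which includes the difference between the sets of libraries. Without the interleukins the effect is a difference from Ctrl_0h, so the interaction also includes the time in culture. The effect with the interleukins compares groups of the same time and does not include it. At 6 h the difference was positive for Nlrp3 and Pycard and negative for Il18bp, Il1rn and Gsdmd, against 9.27% positive and 9.13% negative calls over all genes. At 24 h it was positive for Pycard and negative for Il1b, Nlrp3, Il18, Casp4, Il1rn, Il18bp and Casp1, against 11.6% positive and 12.5% negative calls. The median difference over the 10 genes was -0.69 at 6 h and -1.90 at 24 h, beside -0.0029 and 0.08 over all genes. The change of the TNF effect with time, with the interleukins present, compared a set at 24 h with another at 6 h. It was positive for Il18bp and negative for Il1b and Nlrp3, against 1.89% positive and 1.78% negative calls. It was also called as negative for Casp1 (-0.75) and Casp4 (-1.02) without replicate 1 of IL_TNF_24h.

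**Figure D2:**
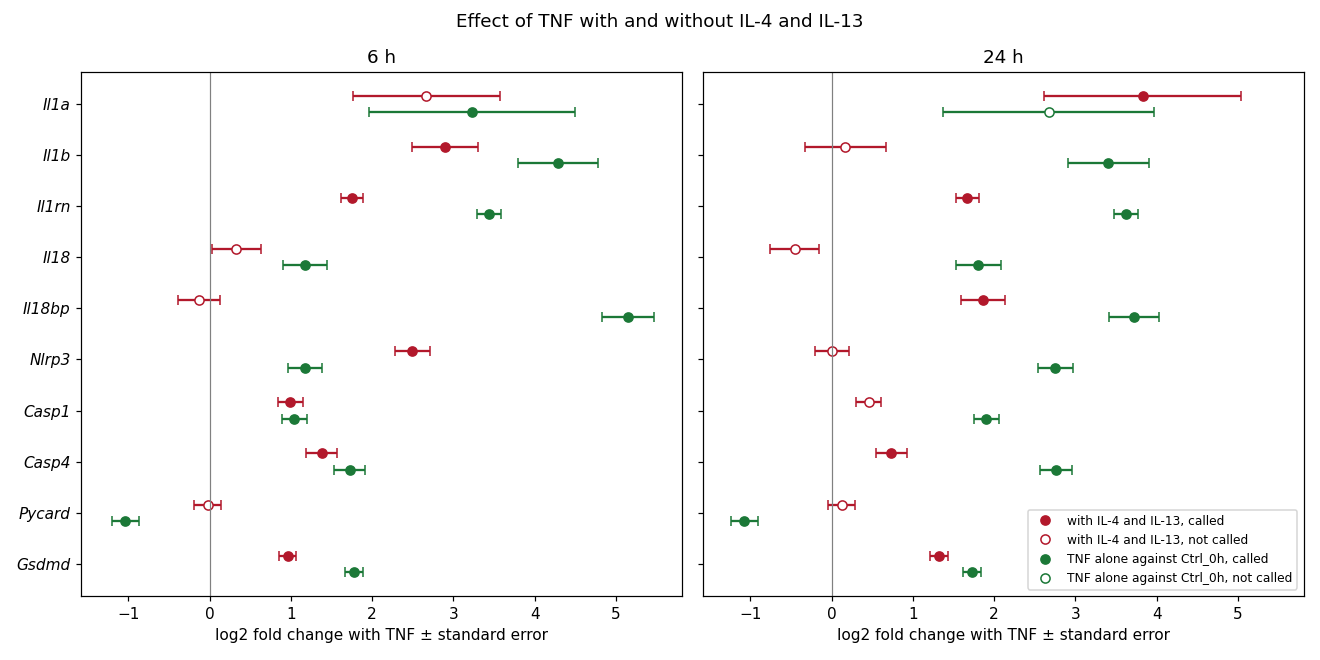
Log2 fold change with TNF ± standard error (x axis) for each gene (y axis) at 6 h (left) and 24 h (right), with IL-4 and IL-13 against IL alone (red) and without them against Ctrl_0h (green). Filled points passed an adjusted p below 0.05. At 24 h the red points of Nlrp3 and Il1b lie near 0 and the green ones near 3.

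In the comparisons between sets, larger shares of all genes were called. In IL_6h against Ctrl_0h, 4 of the 10 genes rose (Il18bp, Il1a, Il1b and Il1rn) and 2 fell (Il18 and Pycard), against 32.8% and 31.6% of all genes. In IL_24h against Ctrl_0h, Il18bp rose and Il18, Nlrp3, Pycard and Casp4 fell, against 31.7% and 32.6%. In IL_TNF_6h against TNF_6h, 4 rose (Il1a, Il1b, Nlrp3 and Il1rn) and 4 fell (Il18, Il18bp, Pycard and Gsdmd), against 29.7% and 27.5%. In IL_TNF_24h against TNF_24h, Pycard rose and 7 fell (Il18, Nlrp3, Il1b, Casp4, Il1rn, Casp1 and Gsdmd), against 29.2% and 27.1%.

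**Figure D3:**
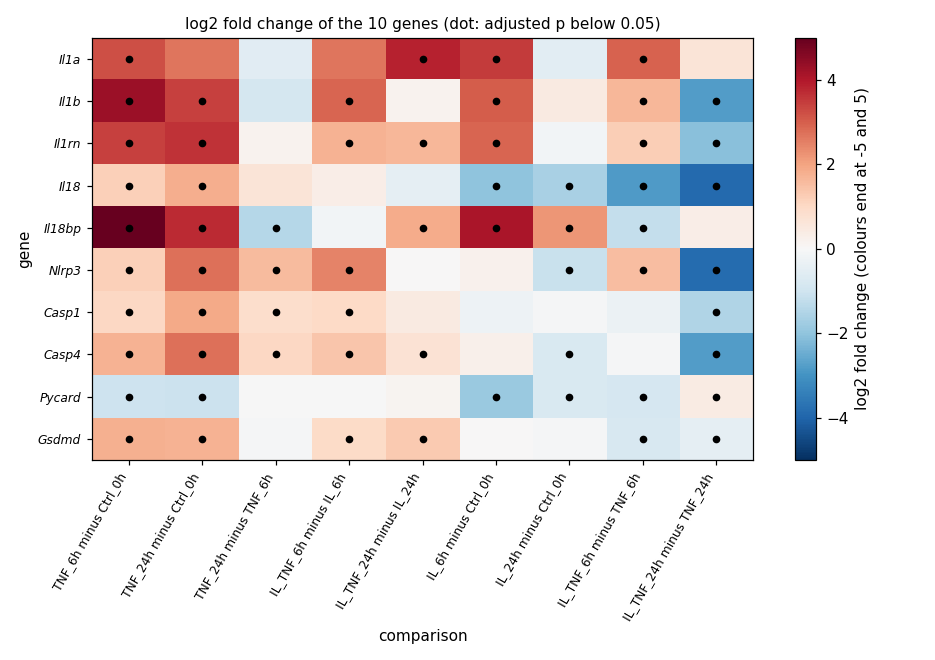
Log2 fold change (colour, ending at -5 and 5) of the 10 genes (rows) in the 9 comparisons of a pair of groups (columns). A dot marks an adjusted p below 0.05. The columns of TNF against Ctrl_0h are red for 9 genes and blue for Pycard, and the last column is blue for 7 of the genes called.

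Il1b encodes the cytokine IL-1β (ENSMUSG00000027398, chromosome 2, 129364569 to 129371164 in GRCm38.p6). Its highest levels stood in IL_TNF_6h, with 17.6, 14.4 and 19.4 CPM, against 2.16, 2.47 and 2.27 CPM in IL_6h. The groups did not overlap, and the log2 fold change was 2.89 ± 0.41 (edgeR adjusted p 3.78e-05). At 24 h the same pair of treatments overlapped, with 0.197, 0.210 and 0.871 CPM in IL_TNF_24h and 0.584, 0.305 and 0.252 CPM in IL_24h, and Il1b was not called (log2 change 0.17 ± 0.50, and -0.90 to 0.63 with 1 library left out). The change of the TNF effect between these times was -2.73 ± 0.64 (adjusted p 0.0187). That call was lost (adjusted p between 0.0502 and 0.130) when replicate 1 or 3 of IL_6h, replicate 1 of IL_24h or replicate 2 of IL_TNF_24h was left out, and its size was -3.79 without replicate 3 of IL_TNF_24h, the highest of that group.

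TNF alone also raised Il1b. TNF_6h had 5.06, 6.68 and 4.71 CPM, against 0.534, 0.101 and 0.163 CPM in Ctrl_0h, a log2 fold change of 4.28 ± 0.49. TNF_24h had 3.16, 3.29 and 2.52 CPM, a log2 change of 3.41 ± 0.49 from Ctrl_0h. All TNF libraries lay above all Ctrl_0h libraries, and replicate 1 of Ctrl_0h was the highest of its group, so that without it the changes were 5.34 and 4.47. Between TNF_24h and TNF_6h, Il1b was not called (log2 change -0.88 ± 0.39, adjusted p 0.121), although the levels did not overlap, and a fit of these groups alone called it (-0.89, adjusted p 0.00948), as did the fit without a filter (-0.86).

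The order of IL_TNF and TNF turned round between the times. As IL_TNF_6h and IL_TNF_24h belong to different sets, the set and the time cannot be told apart here. Il1b was higher in IL_TNF_6h than in TNF_6h by 1.64 ± 0.39 on the log2 scale and lower in IL_TNF_24h than in TNF_24h (log2 change -2.79 ± 0.46), without overlap in either pair. Without replicate 3 of IL_TNF_24h the value at 24 h was -3.85. The interaction at 24 h was -3.24 ± 0.71 (adjusted p 0.00245). It was -4.30 without replicate 1 of Ctrl_0h, -4.31 without replicate 3 of IL_TNF_24h, and -2.62 without both replicate 2 of Ctrl_0h and replicate 1 of IL_TNF_24h. At 6 h it was not called (log2 change -1.39 ± 0.62), but it was without replicate 1 of Ctrl_0h (-2.45) and in the fit without a filter (-1.41, adjusted p 0.0214). IL_6h exceeded Ctrl_0h by 3.03 ± 0.49 on the log2 scale (4.09 without replicate 1 of Ctrl_0h), and IL_24h was not called against Ctrl_0h (log2 change 0.45 ± 0.55). The antisense gene Il1bos, which overlaps Il1b, had at most 0.114 CPM.

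Neutrophils can carry Il1b. Of the 11 neutrophil markers listed, Ly6g had at most 0.0912 CPM and S100a8 at most 0.895 CPM. The other markers are given below only as part of the sum, apart from Mmp8. Il1b itself had at most 0.871 CPM in IL_TNF_24h, 0.584 CPM in IL_24h and 0.534 CPM in Ctrl_0h. The summed neutrophil list lay between 3.43 and 4.78 CPM in IL_TNF_6h, where Il1b was highest. The neutrophil list was highest in IL_TNF_24h, at 19.3 to 20.1 CPM against 6.51 to 7.53 CPM in IL_24h, most of it Mmp8 (16.7, 13.8 and 14.1 CPM in IL_TNF_24h). The dendritic cell list was also highest in IL_TNF_24h, at 25.6 to 31.6 CPM against 3.58 to 5.18 CPM in IL_24h, most of it Ccr7 and Zbtb46. The part of these markers in the levels of Il1b was not tested.

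Il1a, which encodes IL-1α (ENSMUSG00000027399, chromosome 2, 129299609 to 129310186), was the lowest of the 10 genes per kilobase of exon in every group. IL_TNF_6h had 1.88, 1.31 and 2.04 CPM, against 0.221, 0.526 and 0.0575 CPM in IL_6h. These levels did not overlap, yet the log2 change of 2.67 ± 0.90 was not called (adjusted p 0.0558), and it was with DESeq2, a stricter filter or a fit of these groups alone (adjusted p between 0.0172 and 0.0213). IL_TNF_6h also exceeded TNF_6h, which had 0.268, 0 and 0.413 CPM, by 2.94 ± 0.93 on the log2 scale (adjusted p 0.0115). Without replicate 3 of IL_TNF_6h or replicate 2 of TNF_6h that call was lost (adjusted p 0.0521 and 0.0528), with a change of 2.35 in the second case and of 3.70 without replicate 3 of TNF_6h.

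The other groups held few counts of Il1a. IL_TNF_24h had 28 counts in all and IL_24h 2, a ratio of scaled levels of 17.0 with a 95% exact interval of the counting error from 4.29 to 147.5. TNF_6h had 20 counts and Ctrl_0h 2, a ratio of 10.6 (2.57 to 93.2). IL_6h had 35 counts against the same 2 in Ctrl_0h, a ratio of 13.8 (3.55 to 118). These 3 comparisons were called (adjusted p 0.0468, 0.0497 and 0.0183 by edgeR). The first was lost without any 1 of its 6 libraries (adjusted p between 0.0501 and 0.201). The second was lost without replicate 1 or 3 of either group (0.109 to 0.191), with a log2 change of 3.23 ± 1.26 in all libraries, 2.64 without replicate 1 of Ctrl_0h, and 3.82 and 2.48 without replicate 2 or 3 of TNF_6h. The third was lost without replicate 1 or 3 of Ctrl_0h or replicate 2 of IL_6h (0.0661 to 0.107), with a log2 change of 3.50 ± 1.23 in all libraries, 2.91 without replicate 1 of Ctrl_0h and 2.62 without replicate 2 of IL_6h. Both counts of Ctrl_0h lay in replicate 2, so without it the group stood at 0 counts. The log2 changes from Ctrl_0h were then 6.10 for TNF_6h and 6.39 for IL_6h (edgeR adjusted p 0.0271 and 0.00877). TNF_24h against Ctrl_0h gave a ratio of 7.46 (1.71 to 67.6) and was not called (log2 change 2.67, adjusted p 0.102), except without replicate 2 of Ctrl_0h (5.55, adjusted p 0.048). Both counts of IL_24h lay in its replicate 1. The interactions of Il1a were -0.56 ± 1.29 at 6 h and 1.16 ± 1.97 at 24 h, and neither was called, nor was IL_TNF_24h against TNF_24h (log2 change 0.64 ± 0.97). The overlapping gene Gm14023 had at most 0.341 CPM.

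Il18 encodes IL-18 (ENSMUSG00000039217, chromosome 9, 50554700 to 50581841). Its levels in the 4 groups with interleukins lay below those of the other 3 groups in every library. TNF_24h had 16.7, 15.3 and 12.5 CPM, against 4.04, 4.16 and 4.54 CPM in Ctrl_0h, a log2 rise of 1.81 ± 0.27 (adjusted p 2.29e-05). TNF_6h had 9.78, 10.2 and 8.66 CPM, a log2 rise of 1.17 ± 0.27. The groups did not overlap at either time, nor did TNF_24h and TNF_6h, though their log2 difference of 0.63 ± 0.26 was called only by DESeq2 (adjusted p 0.0484) and by a fit of these groups alone (0.0105).

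With the interleukins TNF gave no call for Il18. IL_TNF_6h had 1.02, 1.12 and 1.82 CPM and IL_6h 1.21, 0.594 and 1.38 CPM, a log2 change of 0.33 ± 0.30. IL_TNF_24h had 1.32, 1.10 and 0.580 CPM and IL_24h 1.40, 1.52 and 1.18 CPM, a log2 change of -0.46 ± 0.30. The levels of both pairs overlapped. The interaction at 24 h was -2.26 ± 0.40 (adjusted p 3.99e-04). At 6 h it was -0.84 ± 0.40 and not called, but it was without replicate 2 of IL_6h (-1.21) or replicate 3 of IL_TNF_6h (-1.22). Between sets, IL_6h lay below Ctrl_0h (log2 change -2.00 ± 0.29), as did IL_24h (log2 change -1.63 ± 0.28), and IL_TNF lay below TNF, with log2 changes of -2.85 ± 0.29 at 6 h and -3.89 ± 0.31 at 24 h. Bco2, a carotenoid oxygenase gene, overlaps Il18 and moved with it, with 1.35 to 2.41 CPM in Ctrl_0h, 3.38 to 4.36 CPM in TNF_6h, 4.54 to 5.87 CPM in TNF_24h and at most 0.460 CPM in the groups with interleukins. Reads of the 2 genes cannot be told apart where they overlap, since the strand setting of the counting is not given in the sources used here.

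Il1rn, the gene of the receptor antagonist (ENSMUSG00000026981, chromosome 2, 24336860 to 24351491), was raised by TNF in all 4 within-set comparisons. IL_TNF_6h had 148, 133 and 169.6 CPM, against 40.9, 47.5 and 45.5 CPM in IL_6h, a log2 change of 1.75 ± 0.13 (adjusted p 1.61e-08). IL_TNF_24h had 20.3, 15.2 and 15.3 CPM, against 5.47, 5.44 and 5.03 CPM in IL_24h, a log2 change of 1.67 ± 0.14 (adjusted p 6.77e-08). The levels did not overlap at either time, and the change of the TNF effect between the times was not called (log2 change -0.08 ± 0.19). TNF_6h had 65.7, 65.3 and 60.4 CPM and TNF_24h 65.7, 76.2 and 75.3 CPM, each without overlap with the 7.03, 5.55 and 5.06 CPM of Ctrl_0h, which gave log2 changes of 3.44 ± 0.15 and 3.62 ± 0.15. The interaction was negative at 6 h (log2 change -1.69 ± 0.19) and at 24 h (log2 change -1.95 ± 0.20). At 6 h IL_6h alone stood above Ctrl_0h by 2.92 ± 0.14 on the log2 scale, and IL_TNF_6h had the highest levels of all groups, 1.23 ± 0.13 above TNF_6h on the same scale. At 24 h IL_24h was not called against Ctrl_0h (log2 change -0.15 ± 0.14), and IL_TNF_24h lay below TNF_24h (log2 change -2.10 ± 0.14).

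Il18bp, the gene of the IL-18 binding protein (ENSMUSG00000070427, chromosome 7, 102015074 to 102018232), rose with TNF alone and with the interleukins alone against Ctrl_0h, which had 1.68, 1.79 and 2.12 CPM. TNF_6h had 71.4, 65.3 and 62.1 CPM (log2 change 5.15 ± 0.32) and TNF_24h 23.4, 26.6 and 23.7 CPM (log2 change 3.72 ± 0.31). This was a fall between the times, with a log2 change of -1.43 ± 0.26 (adjusted p 4.53e-04). IL_6h had 32.1, 33.1 and 29.1 CPM (log2 change 4.08 ± 0.31) and IL_24h 7.95, 9.84 and 7.80 CPM (log2 change 2.19 ± 0.30). None of these groups overlapped with Ctrl_0h.

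Added to the interleukins, TNF left Il18bp uncalled at 6 h (log2 change -0.13 ± 0.26), with 30.0, 29.9 and 26.3 CPM in IL_TNF_6h overlapping IL_6h. At 24 h IL_TNF_24h had 54.2, 19.7 and 19.4 CPM, all above IL_24h, a log2 change of 1.87 ± 0.27 (adjusted p 6.49e-05). Replicate 1 of IL_TNF_24h was the highest of its group, and without it the change was 1.20 (adjusted p 2.19e-06). The interaction was -5.28 ± 0.40 at 6 h and -1.85 ± 0.40 at 24 h (-2.59 without that replicate). The change of the TNF effect with time was 2.00 ± 0.37 (1.33 without it). IL_TNF_6h lay below TNF_6h (log2 change -1.21 ± 0.26, without overlap). IL_TNF_24h against TNF_24h was not called (log2 change 0.34 ± 0.26), and without replicate 1 of IL_TNF_24h it was called in the other direction (-0.34, adjusted p 0.0314).

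The counts of each antagonist per count of its cytokine were compared within libraries, as a description of levels without regard to gene length. Il18bp had 14.4 to 29.3 counts per Il18 count in IL_TNF_6h, 21.1 to 55.8 in IL_6h, 18.0 to 41.0 in IL_TNF_24h and 5.67 to 6.59 in IL_24h. It had 6.38 to 7.29 in TNF_6h and 1.40 to 1.89 in TNF_24h, against 0.417 to 0.468 in Ctrl_0h. All 18 treated libraries thus lay above the 3 of Ctrl_0h. Il1rn had 8.38 to 9.27 counts per Il1b count in IL_TNF_6h against 18.9 to 20.1 in IL_6h, without overlap. The ratio was 17.5 to 103 in IL_TNF_24h and 9.37 to 19.9 in IL_24h, where Il1b had 52 and 56 counts in all. It was 9.77 to 13.0 in TNF_6h and 20.8 to 29.9 in TNF_24h, against 13.2 to 54.7 in Ctrl_0h, where Il1b had 28 counts. In every library the antagonist Il1rn had more counts than Il1b.

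**Figure D4:**
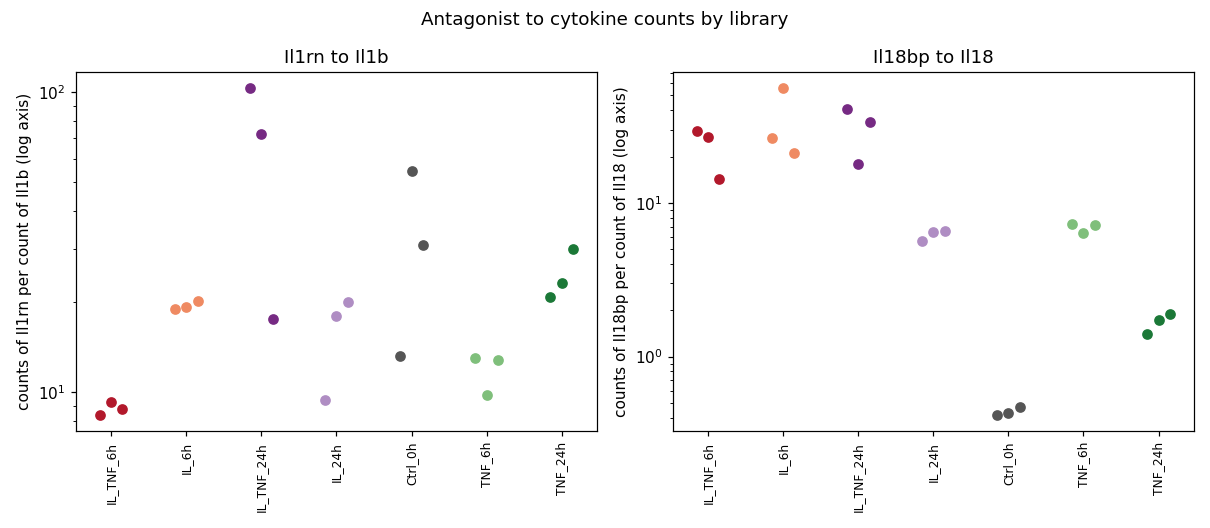
Counts of Il1rn per count of Il1b (left) and of Il18bp per count of Il18 (right) in each library (points), on log axes, by group. In the right panel the 3 Ctrl_0h libraries sit below 1 and all treated libraries above it.

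Nlrp3 encodes the sensor of the best known inflammasome (ENSMUSG00000032691, chromosome 11, 59541569 to 59566955). At 6 h its rise with TNF was larger in the libraries with the interleukins than in those without. IL_TNF_6h had 217, 214 and 199 CPM, against 38.7, 33.1 and 40.3 CPM in IL_6h, a log2 change of 2.49 ± 0.21 (adjusted p 8.46e-08). TNF_6h had 72.2, 73.1 and 73.7 CPM, against 38.1, 19.0 and 40.0 CPM in Ctrl_0h, a log2 change of 1.17 ± 0.21. Replicate 2 of Ctrl_0h was the lowest of its group, and without it the change was 0.90 (adjusted p 2.00e-04). Neither pair overlapped, and the interaction was 1.32 ± 0.29 (adjusted p 0.00326; 1.59 without that replicate).

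By 24 h the order was the reverse. TNF_24h had 169, 221 and 265 CPM, 2.75 ± 0.22 above Ctrl_0h and 1.58 ± 0.21 above TNF_6h on the log2 scale. IL_TNF_24h had 17.9, 12.4 and 14.8 CPM and IL_24h 14.6, 14.6 and 15.7 CPM, which overlapped, with a log2 change of 0.00 ± 0.21. The interaction was -2.75 ± 0.30 (adjusted p 1.96e-06) and the change of the TNF effect with time -2.49 ± 0.30 (adjusted p 4.52e-05). Against TNF alone, the log2 change of Nlrp3 was 1.53 ± 0.21 in IL_TNF_6h and -3.86 ± 0.23 in IL_TNF_24h. IL_24h lay below Ctrl_0h (log2 change -1.11 ± 0.21) and IL_6h was not called (log2 change 0.21 ± 0.21). These calls held in every fit that left out 1 library, and none moved by over 1.5 times.

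Pycard, the gene of the adaptor ASC (ENSMUSG00000030793, chromosome 7, 127991373 to 127993867), was the one of the 10 genes that fell with TNF alone. TNF_6h had 41.1, 32.1 and 31.7 CPM and TNF_24h 44.2, 33.0 and 24.9 CPM, against 71.1, 83.9 and 60.4 CPM in Ctrl_0h. Neither overlapped with Ctrl_0h, and the log2 changes were -1.04 ± 0.17 and -1.08 ± 0.17. IL_6h had 21.8, 18.5 and 18.5 CPM (log2 change -1.87 ± 0.17 against Ctrl_0h) and IL_24h 42.1, 41.9 and 42.2 CPM (log2 change -0.77 ± 0.17), so every treated group lay below Ctrl_0h.

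TNF added to the interleukins gave no call for Pycard. IL_TNF_6h had 20.2, 19.4 and 18.2 CPM (log2 change -0.02 ± 0.17 against IL_6h) and IL_TNF_24h 40.6, 48.0 and 48.8 CPM (log2 change 0.12 ± 0.16 against IL_24h), and both pairs overlapped. The interactions were 1.01 ± 0.24 at 6 h and 1.20 ± 0.23 at 24 h. IL_TNF_6h lay below TNF_6h (log2 change -0.86 ± 0.17). IL_TNF_24h against TNF_24h was called as higher (log2 change 0.43 ± 0.17, adjusted p 0.0340) although the libraries overlapped, and the call was lost without replicate 2 or 3 of IL_TNF_24h or replicate 2 or 3 of TNF_24h (adjusted p between 0.0936 and 0.192).

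Casp1, the gene of caspase-1 (ENSMUSG00000025888, chromosome 9, 5298517 to 5307281), had the second highest level per kilobase of exon among the 10 genes in every group. TNF_24h had 321, 345 and 277 CPM, against 89.1, 73.4 and 89.6 CPM in Ctrl_0h, and TNF_6h had 172, 181 and 166 CPM. The log2 changes from Ctrl_0h were 1.90 ± 0.16 at 24 h and 1.04 ± 0.15 at 6 h, and TNF_24h exceeded TNF_6h by 0.86 ± 0.15 on the log2 scale. None of these groups overlapped. IL_TNF_6h had 120.4, 134 and 166 CPM, against 64.1, 80.1 and 67.2 CPM in IL_6h, a log2 change of 0.99 ± 0.15 close to that of TNF alone, with an interaction of -0.05 ± 0.21 that was not called (adjusted p 0.906).

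At 24 h IL_TNF_24h had 141, 92.8 and 99.3 CPM, against 78.2, 81.2 and 83.3 CPM in IL_24h. The groups did not overlap, but the log2 change of 0.46 ± 0.15 was not called (adjusted p 0.0607), except by DESeq2 (0.0282), with a stricter filter (0.0442) or without replicate 2 of IL_TNF_24h (0.57, adjusted p 0.0314). The interaction at 24 h was -1.45 ± 0.22 (adjusted p 6.81e-05). IL_TNF_24h lay below TNF_24h (log2 change -1.50 ± 0.15). IL_TNF_6h against TNF_6h was not called (log2 change -0.31 ± 0.15) but was without replicate 3 of IL_TNF_6h (-0.47, adjusted p 0.0231). Neither IL_6h (log2 change -0.25 ± 0.15) nor IL_24h (log2 change -0.05 ± 0.15) was called against Ctrl_0h.

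Casp4 (ENSMUSG00000033538, chromosome 9, 5308849 to 5336791), which codes for the caspase that senses lipopolysaccharide, also rose under TNF alone. TNF_24h had 158, 165 and 134 CPM, against 22.4, 20.3 and 24.9 CPM in Ctrl_0h (log2 change 2.76 ± 0.20), and TNF_6h had 74.9, 76.8 and 70.8 CPM (log2 change 1.72 ± 0.19). IL_TNF_6h had 60.5, 68.6 and 82.7 CPM, against 23.7, 31.0 and 26.7 CPM in IL_6h (log2 change 1.38 ± 0.19). All these groups were apart, and the interaction at 6 h was not called (log2 change -0.34 ± 0.27).

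At 24 h the levels of Casp4 with interleukins were lower than at 6 h, where the set and the time cannot be told apart. IL_TNF_24h had 32.1, 16.8 and 17.3 CPM, against 13.1, 13.3 and 13.4 CPM in IL_24h, a log2 change of 0.73 ± 0.19 (adjusted p 0.0142). Replicate 1 of IL_TNF_24h was the highest, and without it the change was 0.37 and not called (adjusted p 0.149). The call was also lost without any 1 library of IL_24h (adjusted p between 0.0537 and 0.0609). The interaction was -2.03 ± 0.27 (adjusted p 2.00e-05), IL_TNF_24h lay below TNF_24h (log2 change -2.79 ± 0.20), and IL_24h lay below Ctrl_0h (log2 change -0.76 ± 0.19). At 6 h neither IL_TNF_6h against TNF_6h (log2 change -0.07 ± 0.19) nor IL_6h against Ctrl_0h (log2 change 0.27 ± 0.19) was called.

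Gsdmd, the gene of the pore-forming gasdermin D (ENSMUSG00000022575, chromosome 15, 75862144 to 75867408), had the highest level per kilobase of exon among the 10 genes in every group. It rose with TNF in all 4 within-set comparisons, among them IL_TNF_24h against IL_24h, where Nlrp3 and Il1b were not called. IL_TNF_24h had 344, 308 and 320.1 CPM, against 126, 127 and 138 CPM in IL_24h, a log2 change of 1.32 ± 0.11 (adjusted p 6.56e-08). IL_TNF_6h had 276, 258 and 247 CPM, against 143, 115 and 143 CPM in IL_6h, a log2 change of 0.96 ± 0.11. Neither pair overlapped, and the change of the TNF effect with time was not called (log2 change 0.36 ± 0.15).

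Without interleukins, TNF_6h had 466, 459 and 453 CPM, against 137, 136 and 128 CPM in Ctrl_0h (log2 change 1.78 ± 0.11), and TNF_24h had 484, 467 and 381 CPM (log2 change 1.73 ± 0.11). The level overlapped between the times (log2 change -0.05 ± 0.11, not called). The interaction was -0.82 ± 0.15 at 6 h (adjusted p 8.00e-04) and -0.42 ± 0.15 at 24 h (adjusted p 0.0543). The value at 24 h was called without replicate 2 of IL_24h (-0.50), replicate 1 of IL_TNF_24h (-0.53) or replicate 3 of TNF_24h (-0.52). It was also called with the size factors (adjusted p 0.0488) and the Wald test (0.0177) of DESeq2 and with the compared groups alone (0.0467). IL_TNF lay below TNF, with log2 changes of -0.82 ± 0.11 at 6 h and -0.45 ± 0.11 at 24 h, and IL was not called against Ctrl_0h at 6 h (log2 change 0.00 ± 0.11) or 24 h (log2 change -0.04 ± 0.11).

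Of 58 other genes of IL-1 signalling and inflammasomes listed from general knowledge, 57 were matched and 50 tested. In TNF_6h against Ctrl_0h 20 rose and 10 fell, where 18.8% rose and 20.5% fell among all 15581 genes tested. In TNF_24h against Ctrl_0h 23 rose and 14 fell, where 20.9% rose and 24.4% fell. In TNF_24h against TNF_6h 12 rose and 7 fell, where 12.7% rose and 10.9% fell. In IL_TNF_6h against IL_6h 14 rose and 11 fell, where 7.09% rose and 6.98% fell among all genes. In IL_TNF_24h against IL_24h 8 rose and 3 fell, where 6.03% rose and 5.08% fell. The number called in that comparison was between 6 and 7 without any 1 library of IL_24h or without replicate 1 or 3 of IL_TNF_24h. The interaction at 6 h was positive for 4 and negative for 10, against 9.27% and 9.13% of all genes (9 in all without replicate 3 of IL_6h or replicate 2 or 3 of TNF_6h). At 24 h it was positive for 8 and negative for 15, against 11.6% and 12.5%. Between sets, 27 rose and 10 fell in IL_6h against Ctrl_0h, where 32.8% rose and 31.6% fell among all genes. In IL_24h against Ctrl_0h 29 rose and 7 fell, where 31.7% rose and 32.6% fell. In IL_TNF_6h against TNF_6h 22 rose and 13 fell, where 29.7% rose and 27.5% fell, and in IL_TNF_24h against TNF_24h 24 rose and 13 fell, where 29.2% rose and 27.1% fell. The change of the TNF effect with time was positive for 4 and negative for 4, against 1.89% and 1.78% of all genes. This count of 8 was between 2 and 4 without replicate 1 or 3 of IL_6h, replicate 2 of IL_TNF_6h, any 1 library of IL_24h, or replicate 2 or 3 of IL_TNF_24h.

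The guanylate-binding protein gene Gbp2 and the GTPase gene Irgb10, which help inflammasomes respond to bacteria inside the cell, rose with TNF at both times, with and without the interleukins. Gbp2 reached 884 ± 120.3 CPM in TNF_24h, against 6.38 ± 1.88 CPM in Ctrl_0h (log2 change 7.11 ± 0.23; SD, n = 3). It also rose in IL_TNF_24h, to 585 ± 98.3 CPM against 52.6 ± 3.42 CPM in IL_24h (log2 change 3.48 ± 0.19). Irgb10 had 168 ± 14.9 CPM in TNF_24h, against 5.48 ± 2.03 CPM in Ctrl_0h (log2 change 4.93 ± 0.45), and 19.3 ± 17.5 CPM in IL_TNF_24h, a log2 difference from TNF_24h of -3.12 ± 0.41 (-4.20 without replicate 1 of IL_TNF_24h). The libraries of IL_TNF_24h had 39.5, 9.70 and 8.75 CPM, against 3.72, 4.78 and 4.54 CPM in IL_24h. Much of that rise thus lay in replicate 1. Gbp5, a relative of Gbp2, had 17.1 ± 6.73 CPM in IL_TNF_24h, against 0.166 ± 0.118 CPM in IL_24h (log2 change 6.66 ± 0.55; 7.26 without replicate 1 of IL_24h) and 2.53 ± 0.894 CPM in TNF_24h (log2 change 2.76 ± 0.43). Among the 12 other sensors tested, 8 rose and 3 fell in TNF_6h against Ctrl_0h, where 18.8% rose and 20.5% fell among all genes. The pyrin gene Mefv had 13.0 ± 1.46 CPM in TNF_6h against 0.771 ± 0.279 CPM in Ctrl_0h (log2 change 4.09 ± 0.22). In IL_TNF_24h against IL_24h, 3 of them rose and 2 fell, where 6.03% rose and 5.08% fell. Nlrp1b, another sensor gene, had 21.2 ± 3.74 CPM against 35.2 ± 1.73 CPM (log2 change -0.73 ± 0.16).

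Receptors of the family were among the other genes of the list that differed between the groups. Of the 8 receptor genes tested, 0 rose and 4 fell in TNF_6h against Ctrl_0h, where 18.8% rose and 20.5% fell among all genes. In IL_TNF_24h against TNF_24h 7 rose and 0 fell, where 29.2% rose and 27.1% fell. That comparison lies between sets, so the set and the interleukins cannot be told apart. Several receptor genes had few counts, such as Il1r2, at 0.198 CPM in IL_TNF_24h and 0.0203 CPM in TNF_24h. Il18r1 likewise had 0.337 and 0.0233 CPM. In Ctrl_0h the highest receptor gene, Il18rap, had 3.89 CPM. Il1rap, the shared accessory chain of the IL-1 and IL-33 receptors, had 30.0 ± 3.80 CPM in IL_TNF_6h, against 3.13 ± 0.383 CPM in TNF_6h (log2 change 3.26 ± 0.19). Il1rl2, the IL-36 receptor, had 13.7 ± 0.198 CPM in IL_TNF_6h, against 0.239 ± 0.173 CPM in TNF_6h (log2 change 5.83 ± 0.56; 6.42 without replicate 3 of TNF_6h). In IL_6h it had 13.7 ± 1.76 CPM, against 0.749 ± 0.766 CPM in Ctrl_0h (log2 change 4.22 ± 0.49; 5.40 without replicate 2 of Ctrl_0h). Il1rl1, the IL-33 receptor, had 17.4 ± 0.543 CPM in IL_24h, against 2.22 ± 0.0462 CPM in Ctrl_0h (log2 change 2.97 ± 0.63). With TNF it had 4.43 ± 3.22 CPM in IL_TNF_24h (log2 change -1.97 ± 0.60 against IL_24h), a call lost without any 1 library of IL_24h and without replicate 1 or 3 of IL_TNF_24h (adjusted p between 0.0681 and 0.124). It was also lost with the Wald test of DESeq2 (adjusted p 0.0762) and with the compared groups alone (0.0686). Il36g, the one other ligand gene of the family that passed the filter, had 4.19 ± 2.83 CPM in IL_TNF_6h, against 12.2 ± 1.31 CPM in TNF_6h (log2 change -1.54 ± 0.46; -2.18 without replicate 3 of IL_TNF_6h).

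In receptor signalling, Myd88, the adaptor of the IL-1 and IL-18 receptors, had 47.9 ± 3.56 CPM in IL_TNF_24h, against 278 ± 27.4 CPM in TNF_24h (log2 change -2.54 ± 0.12). Peli1, a ubiquitin ligase gene of this pathway, rose to 85.4 ± 17.3 CPM in TNF_24h, against 29.6 ± 1.54 CPM in TNF_6h (log2 change 1.53 ± 0.19). Its relative Peli2 fell to 8.12 ± 1.99 CPM in TNF_24h, against 22.6 ± 2.52 CPM in TNF_6h (log2 change -1.48 ± 0.16), and to 5.90 ± 0.682 CPM in IL_TNF_6h, against 12.4 ± 0.432 CPM in IL_6h (log2 change -1.07 ± 0.16). Card9, an adaptor gene of fungal sensing, fell in IL_6h to 47.1 ± 5.71 CPM, against 105 ± 3.52 CPM in Ctrl_0h (log2 change -1.16 ± 0.13). Gsdme, another gasdermin, fell in TNF_24h to 5.75 ± 0.585 CPM, against 22.7 ± 1.66 CPM in Ctrl_0h (log2 change -1.98 ± 0.25), where Gsdmd rose. Ninj1, which acts in the rupture of the dying cell's membrane, fell in IL_24h to 118 ± 1.88 CPM, against 269 ± 28.5 CPM in Ctrl_0h (log2 change -1.19 ± 0.29). With TNF alone it was higher, at 1077, 967 and 960 CPM in TNF_6h and 1228, 1245 and 988 CPM in TNF_24h. It had 495, 454 and 246 CPM in IL_TNF_6h, against 189, 78.5 and 164 CPM in IL_6h. In IL_TNF_24h it had 325, 173 and 173 CPM, against 117, 120 and 116 CPM in IL_24h. Panx1, a channel gene, fell in TNF_6h to 15.6 ± 2.23 CPM, against 29.9 ± 4.08 CPM in Ctrl_0h (log2 change -0.94 ± 0.20), as did Ripk3, a kinase gene of necroptosis, to 22.6 ± 0.969 CPM, against 54.1 ± 7.71 CPM (log2 change -1.26 ± 0.16).

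**Figure D5:**
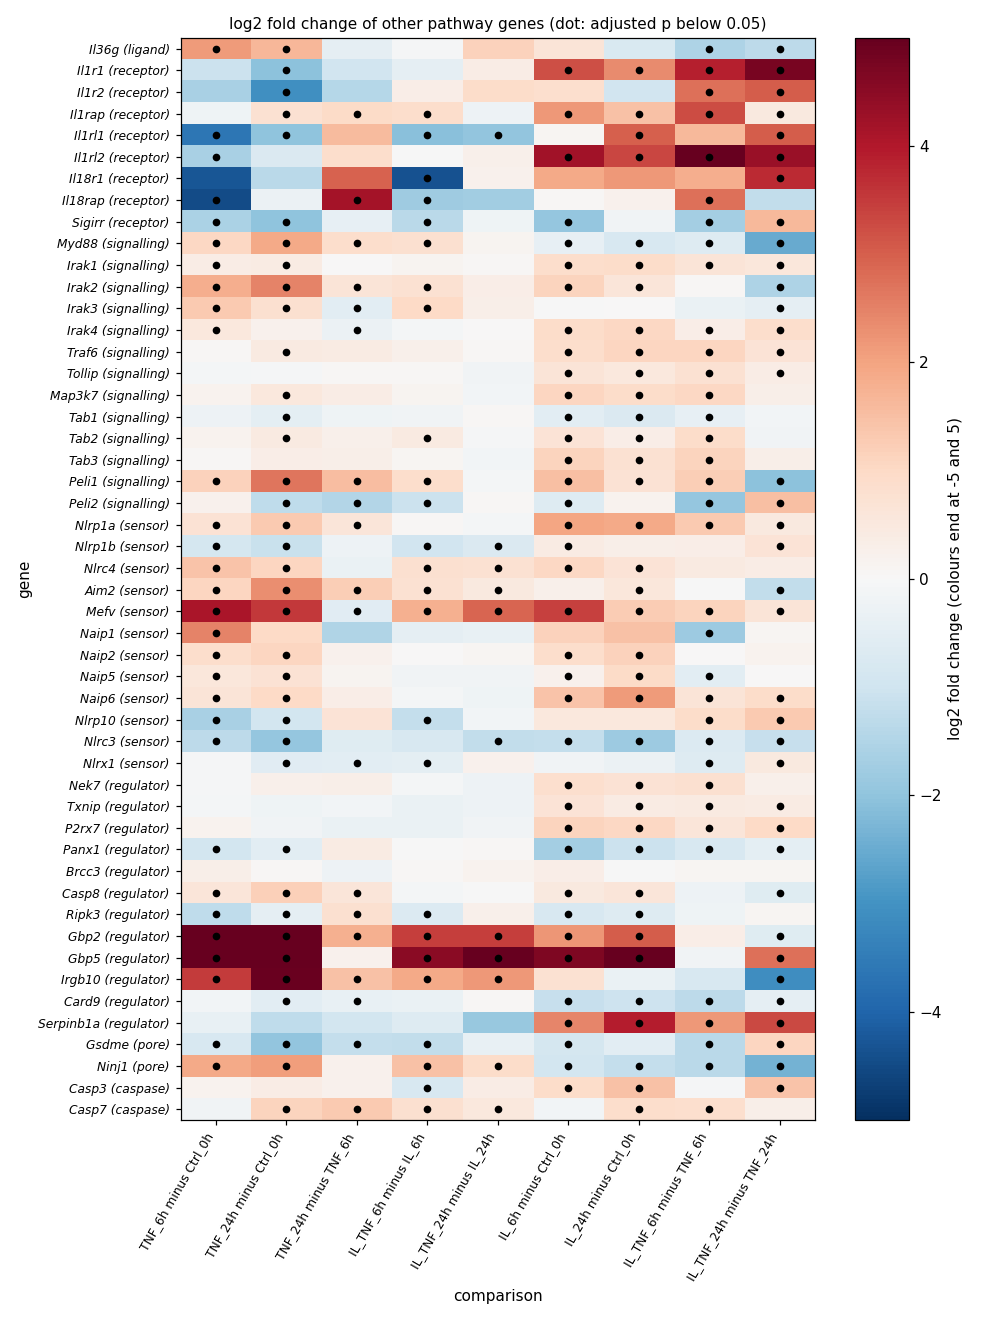
Log2 fold change (colour, ending at -5 and 5) of the 50 other genes of the pathway that were tested (rows, role in brackets) in the 9 comparisons of a pair of groups (columns). A dot marks an adjusted p below 0.05. The receptor rows are mostly blue in the columns of TNF against Ctrl_0h and mostly red in the columns of IL_TNF against TNF.

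Over the 7 group means of log2 CPM, some of the 10 genes ran alike. Pearson's r was 0.95 for Il1b with Il1rn, 0.93 for Nlrp3 with Casp4 and 0.91 for Casp1 with Casp4, as a description over 7 points that share all libraries. Among 8998 other genes with at least 10 CPM in a group, the closest to Nlrp3 were Tnf (0.984), the protease gene Ctsc (0.981) and Ptpn23 (0.974). Casp1 ran closest to Tent4a (0.993), the necroptosis gene Mlkl (0.991) and the sensor gene Nod1 (0.987), and Casp4 to the surface protein gene Cd69 (0.995), Ift57 and Cd82 (0.991 each). Il1b was closest to the fatty acid binding protein gene Fabp3 (0.968), Il1a to the interferon receptor gene Ifnar1 (0.973) and Il18 to Tceanc2 (0.994). Il18bp was closest to the complement gene C1ra (0.975), Pycard to Setd3 (0.978) and Gsdmd to Mpc1 (0.989), a carrier of pyruvate into mitochondria.

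In the other promoter windows, Il1a had a match to AP-1 (TGANTCA, both strands) at -12 and the first Il1rn window one at -141. These letters occurred in 7.81% of all windows. The letters of C/EBP (TTGCNNAA, in 10.8% of windows) matched in Il18bp at -49 and in Pycard at -142, and those of PU.1 (GAGGAAGT, in 3.20%) in Pycard at -44. The second Nlrp3 window had a STAT6 match at -122. The third Il1rn window overlaps the second and holds the same letters, with NF-kB at -51 and STAT6 at -201 from its own start. Likewise, the second Casp4 window overlaps the first, with the same NF-kB matches at -104, -103 and -25. The letters of ISRE (GAAANNGAAA, 3.44%), GAS (TTCNNNGAA, 8.30%) and CRE (TGACGTCA, 1.79%) matched in none of the 13 windows, and the Casp1 window held no match to any motif. No window of Gsdmd was used here.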

How the data were processed

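RNA of bone-marrow-derived macrophages was sequenced in 21 libraries. The deposited table holds counts of reads per gene as whole numbers, not normalized by the authors. The submitters' processing notes name the build GRCm38 and the tools Subread 1.6.3 with featureCounts, TopHat2 2.0.12 and edgeR 3.28.1. The sources used here do not give the strand setting or how read pairs were counted. Counts of 2 (30373 values) outnumber counts of 1 (17808), so fragments may be counted per mate, and counting intervals, which cover counting error only, are then too narrow.

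Identifiers were matched to symbols in 32832 of 47069 cases, and 15581 genes passed filterByExpr of edgeR by group. With R 4.3.3 and edgeR 4.0.16, library totals were scaled by TMM (trimmed mean of M values), and all 21 libraries entered a fit with a term for each group. The quasi-likelihood F test was applied to 12 contrasts at an adjusted p (Benjamini-Hochberg) below 0.05. Standard errors were obtained by dividing the size of a log2 fold change by the root of its F statistic, and the common coefficient of biological variation was 22.8%. The 12 contrasts share groups, such as Ctrl_0h, so their values are not independent. The method was tested on simulated data. Levels per kilobase used exon lengths of GENCODE vM1.

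The 10 genes, the other lists and the tests were chosen with earlier results of these data known. All 10 genes are named in the comparisons. Of the other pathway genes, the rule names the called genes with the 2 largest rises and 2 largest falls per comparison, where the higher group had at least 10 CPM and the libraries of both groups were apart. For each of the 10 genes the 3 genes of most similar pattern over group means of log2 CPM (prior count 2) were taken, and those of Il1rn are not reported here. Alternatives were DESeq2 1.42.0 (size factors, Wald test), no filter, a strict filter, the compared groups alone, a replicate block, each library left out, and pairs of libraries left out, of which the pair of IL_6h replicate 2 and IL_TNF_6h replicate 3 was chosen after seeing the data. No 2 libraries of a group held identical values or differed by less than sampling noise.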

Additional observations from a re-analysis of the deposited data

Results flagged for a closer look

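The effect of TNF in the libraries with the interleukins differed from its effect in those without them, by the interaction in the fit of edgeR, for several of the 10 genes. The libraries with and without the interleukins belong to different sets (by Ddx3y, Xist and Ifi202b), so the set and the interleukins cannot be told apart in these differences, nor the set and the time between 24 and 6 h. Without the interleukins TNF was compared with Ctrl_0h, so the interactions at 6 and 24 h also include the time in culture, which cannot be told apart. The values that follow are differences on the log2 scale. For the interactions at 6 and 24 h, minus stands for a lower value with the interleukins. At 6 h they were 1.32 for Nlrp3, 1.01 for Pycard, -0.82 for Gsdmd, -1.69 for Il1rn and -5.28 for Il18bp. At 24 h they were 1.20 for Pycard, -1.45 for Casp1, -1.85 for Il18bp, -1.95 for Il1rn, -2.03 for Casp4, -2.26 for Il18, -2.75 for Nlrp3 and -3.24 for Il1b. The effect of TNF with the interleukins differed between 24 h and 6 h by 2.00 for Il18bp, -2.49 for Nlrp3 and -2.73 for Il1b. Here minus stands for a lower value at 24 h. This call of Il1b was lost without some single libraries, as given above. It was also lost without both replicate 2 of IL_6h and replicate 3 of IL_TNF_6h (edgeR adjusted p 0.0676). For Pycard the positive values stand beside a fall with TNF alone and no call with the interleukins.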

How the results depend on the processing

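Of 1752 values of the 10 genes under an alternative, 1683 kept their side of the threshold, 37 lost a call and 30 gained one. The other 2 changed sign and were called in the alternative. Of these changes, 25 were in Il1a. The 1683 include values that changed sign without a call in either fit, such as Il1b in IL_TNF_24h against IL_24h. The number of the 10 genes called in IL_TNF_24h against IL_24h was 3 instead of 5 with the compared groups alone and with 2 libraries left out together (Ctrl_0h replicate 2 and IL_TNF_24h replicate 1), and between 3 and 5 with each library left out. For the change of the TNF effect with time it was 5 instead of 3 with these 2 libraries left out, and between 2 and 5 with each library left out. Il18bp in IL_TNF_24h against TNF_24h reversed to -0.35 with the 2 libraries left out, and lay between -0.34 and 0.59 with each library left out. The cause was not tested. Over all genes, 573 were called for the change of the TNF effect with time, against 928 by DESeq2, 1069 with the 2 libraries left out, and 343, 375 and 357 without replicate 1, 2 or 3 of IL_24h and 356 without replicate 3 of IL_6h. With the replicate block, 9 of the 10 genes were called in TNF_6h against Ctrl_0h and 4 in IL_TNF_24h against IL_24h, since Il1a was lost (adjusted p 0.0665 and 0.0603). The deviations of same-numbered libraries from their group means had a median correlation of 0.0066 (from -0.310 to 0.363 over 63 pairs). For libraries with different numbers the median was -0.0032 (from -0.469 to 0.580 over 126 pairs). These pairs were pooled over all sets, so they cannot tell whether libraries inside a set were paired. Size factors of DESeq2 ended the calls of Il1a in TNF_6h (adjusted p 0.0513) and of Pycard in IL_TNF_24h against TNF_24h (0.0532). A fit of the compared groups alone ended that call of Pycard as well (0.124). Depth limits Il1a, and Il1b in IL_24h, IL_TNF_24h and Ctrl_0h.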
